A study of Mus musculus with 48 samples.

Results

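The PPARalpha and fatty acid oxidation genes described here were 32 genes taken by name from the liver count table, and they span the regulators Ppara and Creb3l3, proteins that bring in and activate fatty acids, the carnitine shuttle, the mitochondrial and peroxisomal beta-oxidation enzymes, and secreted or intracellular outputs of the pathway. All 32 were found among the 55414 genes of the table, and all 32 were among the 15414 genes with enough reads to be tested. Liver RNA was sequenced from 48 C57BL/6 FCG mice, a core genotypes model in which Sry has been removed from the Y chromosome and returned as a transgene on an autosome, so that gonad type and sex chromosomes are inherited separately. The 4 genotypes were XX and XY- with ovaries (Ov) and XX;SryTg and XY-;SryTg with testes (Te), and each was studied with intact gonads or after gonadectomy (GDX) at 75 days of age. Each of the 8 groups held 6 mice, and the question was what gonads, sex chromosomes and gonad removal each do to hepatic gene expression.

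Every group was fed a high-fat diet (HFD) with 60% of calories from fat from 15 to 17 weeks of age, for 11 weeks in intact mice and for 15 weeks in GDX mice by the labels. The study's methods give other durations, likewise longer in GDX mice, so the exact time on the diet is uncertain, and they describe a fast before the livers were taken. GDX and intact mice thus also differ in time on the diet and in age at collection, and these cannot be told apart from gonad removal. Mice with testes carry the Sry transgene and mice with ovaries lack it, so the gonadal comparison holds both. No group on another diet was analysed here. In these whole-liver samples, fewer hepatocytes and less RNA per hepatocyte cannot be told apart.

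PPARalpha is a nuclear receptor that is activated by fatty acids, pairs with the retinoid X receptor on DNA, and raises transcription of genes for fatty acid uptake, oxidation and ketone body production, most strongly in fasting. Long-chain fatty acids enter mitochondria as carnitine esters and are shortened in repeated rounds of dehydrogenation, hydration, dehydrogenation and thiolysis. Very long chains and dicarboxylic acids are first shortened in peroxisomes.

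The labels of the 48 mice matched the sex-chromosome genes, since Xist and each of Ddx3y, Eif2s3y, Kdm5d and Uty separated the XX from the XY mice with no overlap. Each mouse had between 13071874 and 20045141 reads assigned to genes. Levels are given as normalised CPM, that is counts scaled to a common library size with TMM factors. The level of 3 reads was 0.131 to 0.254 CPM, which limits detection by counting error alone. The share of reads that fell on no annotated gene was 3.47% to 6.20% in intact mice and 8.52% to 11.28% in GDX mice, so the intact and GDX libraries stood apart in this measure. Within the GDX mice it was 8.52% to 10.06% in XX and 9.98% to 11.28% in XY mice. The summed level of 9 hepatocyte markers was 78690 to 176400 (median 121300) CPM in XX Intact, 93660 to 161800 (median 116600) in XY Intact, 103800 to 139700 (median 127600) in XX GDX and 100400 to 127100 (median 116400) in XY GDX mice, and the 4 ranges overlapped.

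Promoter windows (RefSeq, GRCm38.p6, 250 bases before to 50 after the start site) were found for 27 of the 32 genes. The classical PPARalpha response element is a direct repeat of AGGTCA with 1 base between the copies (DR1). Searched on both strands, the exact repeat was in 0 of the 27 windows and in 0.0481% of the windows of 27025 genes. With any base allowed at the fourth position of each copy (AGGNCA), it was in 1 of the 27 (3.70%), that of Fabp1, and in 0.451% of all. It is shown first below (chr6:71199804-71199832, plus strand), in capitals and in reverse orientation. CCAAT, the box bound by NFY, was in 14 of the 27 windows (51.9%) and in 41.1% of all. The other stretches end at the base before the start site of 6 genes whose values are described below, with CCAAT in either orientation in capitals, and they let the paralogues Acaa1a and Acaa1b be compared. They lie at chr19:3323166-3323300, plus strand (Cpt1a), chr6:5496279-5496413, minus strand (Pdk4), chr7:45615491-45615625, minus strand (Fgf21), chr16:21787835-21787969, minus strand (Ehhadh), chr9:119341159-119341293, plus strand (Acaa1a) and chr9:119157094-119157228, minus strand (Acaa1b).
Fabp1: acaatcacTGACCTATGGCCTatatctga
Cpt1a: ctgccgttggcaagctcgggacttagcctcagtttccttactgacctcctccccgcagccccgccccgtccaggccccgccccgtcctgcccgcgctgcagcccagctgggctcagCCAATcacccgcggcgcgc
Pdk4: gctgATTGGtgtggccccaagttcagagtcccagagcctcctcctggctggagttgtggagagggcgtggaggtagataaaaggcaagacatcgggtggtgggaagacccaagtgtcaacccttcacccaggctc
Fgf21: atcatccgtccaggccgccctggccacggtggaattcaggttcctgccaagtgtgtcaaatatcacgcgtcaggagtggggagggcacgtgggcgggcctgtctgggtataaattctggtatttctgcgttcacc
Ehhadh: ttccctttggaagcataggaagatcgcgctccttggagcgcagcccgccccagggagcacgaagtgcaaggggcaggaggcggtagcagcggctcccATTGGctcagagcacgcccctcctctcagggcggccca
Acaa1a: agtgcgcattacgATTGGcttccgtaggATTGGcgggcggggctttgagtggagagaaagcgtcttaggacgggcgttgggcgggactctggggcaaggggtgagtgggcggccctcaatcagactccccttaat
Acaa1b: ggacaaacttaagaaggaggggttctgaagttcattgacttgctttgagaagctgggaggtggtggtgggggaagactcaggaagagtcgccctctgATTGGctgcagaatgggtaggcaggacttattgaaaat
A match is a string of letters and not a measured binding site, and enhancers outside the windows were not searched. The start sites of Hadha and Hadhb, which encode both subunits of the mitochondrial trifunctional protein, lie head to head with 272 bases between them, so their windows overlap.

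The genes covered a wide range of levels. Per kilobase of the longest coding transcript, the median over the 48 mice was highest for Fabp1, the liver fatty acid binding protein, at 7472 CPM per kb. Acaa2, the last enzyme of the mitochondrial cycle, followed at 444 and Hadh, the short-chain 3-hydroxyacyl-CoA dehydrogenase, at 338 CPM per kb. Lowest were Pdk4, a kinase that switches off pyruvate dehydrogenase, at 2.87 and the hormone gene Fgf21 at 2.19 CPM per kb. Fgf21 was counted at 4 to 187 reads per mouse and Pdk4 at 35 to 661, so their values carry the most counting error of the 32 genes. Reads can be shared between near-identical genes. Of the 50-base stretches of the longest transcripts, 34.1% of Acaa1a and 35.5% of Acaa1b occur in the other gene, and 47.1% of Acot1 occur in another gene, mostly Acot2, so the split of reads between these paralogues is uncertain. In the NCBIM37 annotation exons of Acaa1a, Acaa1b, Acadvl, Eci2 and Hadha also overlap a gene on the opposite strand, and without a known strand setting reads of the overlap cannot be assigned.

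The mean level of the 32 genes, taken as the mean of log2 CPM after each gene was centred on its own mean, was higher in XX than in XY mice of the same gonad and GDX status. Among intact mice it was 0.32 ± 0.17 (SD, n = 6) in XX Ov, -0.05 ± 0.13 in XY Ov, 0.27 ± 0.11 in XX Te and 0.01 ± 0.15 in XY Te mice. Among GDX mice it was 0.17 ± 0.07 in XX Ov, -0.30 ± 0.15 in XY Ov, 0.04 ± 0.11 in XX Te and -0.46 ± 0.23 in XY Te mice. The 12 XX GDX mice lay between -0.091 and 0.261 and the 12 XY GDX mice between -0.850 and -0.130 with no overlap, whereas the intact XX mice (0.125 to 0.582) and XY mice (-0.263 to 0.225) overlapped. With libraries scaled by their totals the GDX ranges overlapped as well, at -0.133 to 0.295 in XX and -0.541 to 0.063 in XY mice.

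**Figure D1:**
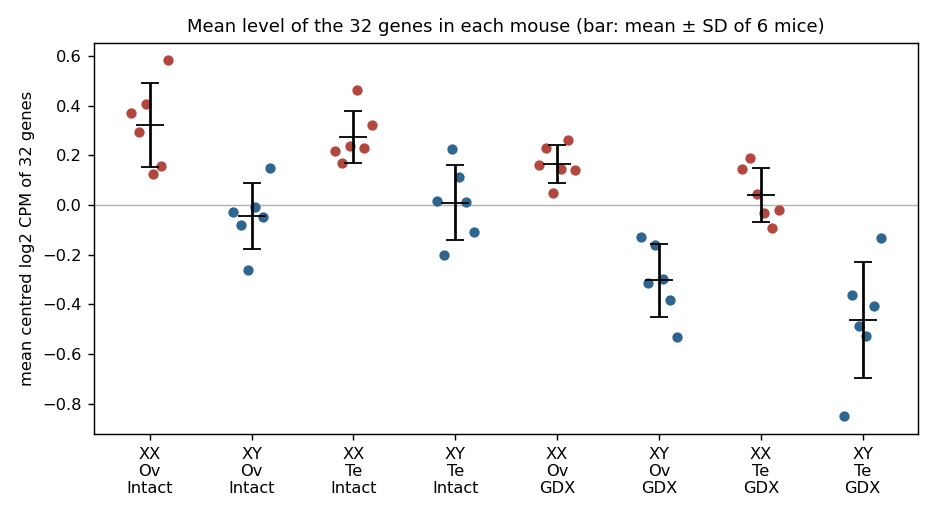
Each point is the mean centred log2 CPM (vertical axis) of the 32 genes in 1 mouse, for the 8 groups (horizontal axis), with XX in red and XY in blue; bars are the mean ± SD of 6 mice. In each of the 4 neighbouring XX and XY pairs the XX mean is higher, for example 0.17 against -0.30 in Ov GDX.

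Sex chromosomes were compared first, as XX minus XY over all 48 mice. Of the 32 genes, 29 were higher in XX mice and 0 were lower at an adjusted p under 0.05, and the log2 fold change was above 0 for all 32, with a median of 0.35. Across all tested genes 36.7% passed in either direction, 21.9% higher and 14.8% lower in XX, with a median log2 fold change of 0.05. Etfa, Etfb and Eci2 did not pass, at log2 fold changes of 0.18, 0.11 and 0.14. The median length of the longest coding transcript was 1392 bases for these genes and 2168 for the 29. Spearman's rho between log2 fold change and this length was 0.46 across the 32 genes and 0.05 across 13077 tested genes, as a description. In intact mice alone it was 0.47 across the 32 genes and 0.21 across the 13077, and in GDX mice 0.4 and -0.07. With offsets for length and GC content, chosen after the data were seen, all 29 calls still passed. The direction was also positive for all 32 genes when libraries were scaled by their totals or by DESeq2's size factors, with 25 and 28 genes passing. Library totals changed the split over all tested genes, from 3382 higher and 2275 lower to 1208 higher and 3081 lower. A fold change above 1.5 was reached by 4 genes, Pdk4, Fgf21, Vnn1 and Acaa1b, so most of the differences were small.

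In intact mice 17 of the 32 genes were higher in XX and 0 lower (10.7% of the tested genes passed, 4.27% higher and 6.42% lower), and in GDX mice 29 were higher and 0 lower (34.3% passed, 19.5% higher and 14.8% lower). The median log2 fold change of the 32 genes was 0.29 (intact) and 0.45 (GDX). With library totals 10 genes passed in intact and 19 in GDX mice, whereas the shares of all tested genes given here are for TMM factors. The intact count was 10 with no filter beyond 1 count and 6 when only intact mice were fitted, and 9 of its 17 calls held whichever mouse was left out. With library totals 31 of the 32 were above 0 in intact mice, and the median of all tested genes in GDX mice moved from 0.08 to -0.10. The difference between these effects was itself tested as an interaction, and 0 of the 32 genes passed, against 2.12% of all tested genes (0.402% higher and 1.72% lower). At an unadjusted p under 0.05 the interaction held for 3 genes, and DESeq2's Wald test also called 0. The interaction was above 0 for 31 genes, and for 19 with library totals. Taken 1 gonad at a time, 6 genes were higher in XX among Ov Intact mice (7.79% of all tested genes passed, 2% higher), 2 among Te Intact (2.1%, 0.649% higher), 21 among Ov GDX (19.1%, 8.69% higher) and 19 among Te GDX mice (19.4%, 8.44% higher), and 0 were lower in any of the 4.

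**Figure D2:**
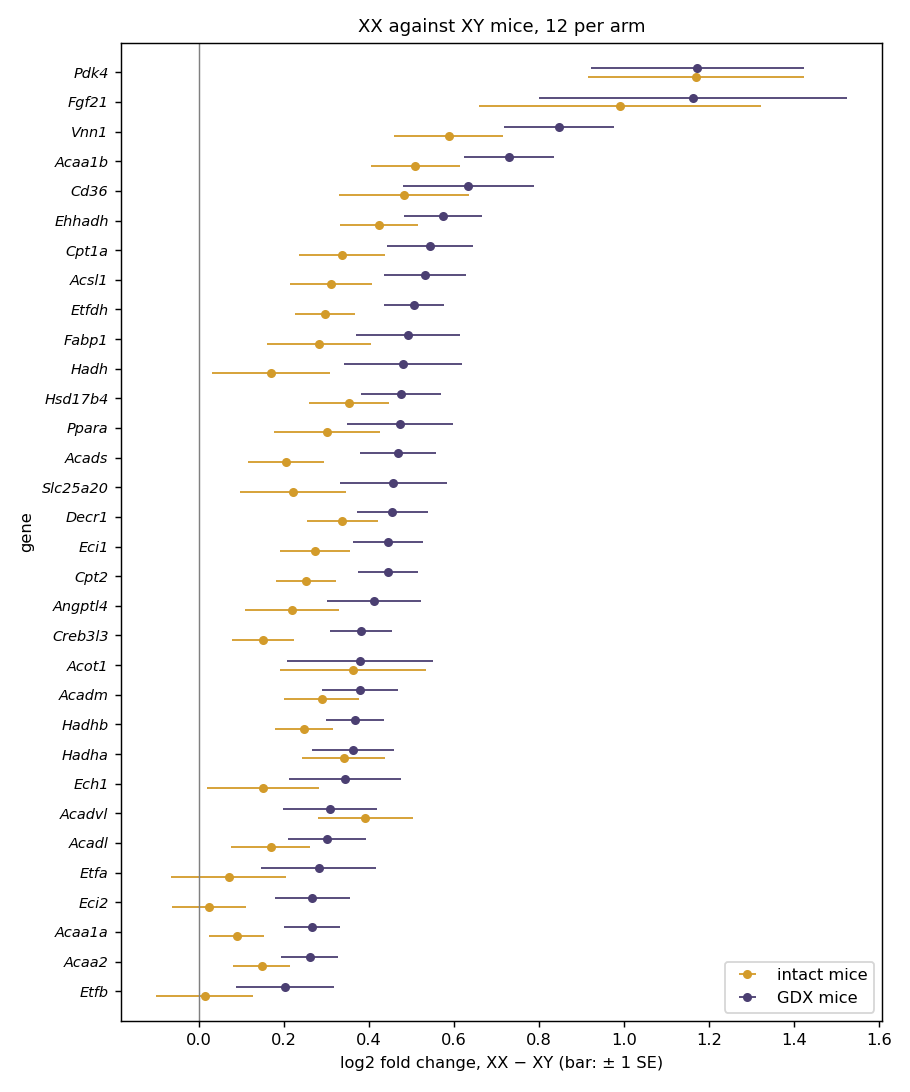
Log2 fold change of XX minus XY mice (horizontal axis, bar ± 1 SE) for each of the 32 genes (vertical axis), in intact mice (ochre) and GDX mice (purple), with 12 mice per arm. Points lie right of 0 for every gene in both cohorts (31 of 32 in intact mice with library totals), and Pdk4 and Fgf21 lie farthest right.

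Among the secreted factors and outputs, Fgf21, a fasting hormone made by hepatocytes under PPARalpha and Creb3l3, had 2.06 to 9.74 (median 3.9) CPM in XX Intact and 0.574 to 7.86 (median 1.57) in XY Intact mice. After GDX it had 1.02 to 3.93 (median 2.56) in XX and 0.199 to 2.04 (median 1.15) in XY mice. The ranges overlapped in both cohorts, yet the XX medians were higher, and the log2 fold change over all mice was 1.08 ± 0.25, adjusted p = 4.50e-04. Vnn1, a pantetheinase and a known PPARalpha target, had 173 to 334 (median 232) CPM in XX Intact and 96.6 to 223 (median 156) in XY Intact mice. It had 130.1 to 238 (median 181) in XX GDX and 53.6 to 158 (median 105) in XY GDX mice. The log2 fold change was 0.72 ± 0.09, adjusted p = 1.36e-08, and few GDX mice of either kind lay in the range of the other. In intact mice alone the Fgf21 call was lost in 14 of the 48 fits that left out 1 mouse. Angptl4, a secreted inhibitor of lipoprotein lipase, differed less, at 0.31 ± 0.08, adjusted p = 0.00123.

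The regulators were also higher in XX, with smaller estimates than Fgf21 and Vnn1. Ppara had 142 to 316 (median 219) CPM in XX Intact and 112 to 255 (median 178) in XY Intact mice, and 254 to 366 (median 278) in XX GDX and 145 to 272 (median 212) in XY GDX mice. Its groups overlapped in both cohorts, and the log2 fold change was 0.39 ± 0.09, adjusted p = 4.20e-04 over all mice and 0.30 ± 0.12, adjusted p = 0.117 in intact mice alone. Creb3l3, a membrane-bound transcription factor that is cleaved in fasting and acts with PPARalpha, was 0.27 ± 0.05, adjusted p = 4.63e-05.

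In the carnitine shuttle and fuel switch, Pdk4 had the highest log2 fold change of the 32 genes. It had 6.04 to 33.2 (median 16.2) CPM in XX Intact and 2.72 to 10.9 (median 6.65) in XY Intact mice. It had 4.56 to 34.5 (median 18) in XX GDX and 4.65 to 14.1 (median 9.48) in XY GDX mice. XX mice spread widely and reached down into the XY range in both cohorts, and the log2 fold change was 1.17 ± 0.18, adjusted p = 7.13e-07. Cpt1a, the malonyl-CoA-sensitive gatekeeper of mitochondrial fatty acid entry, had 754 to 1113 (median 989) CPM in XX GDX and 484 to 838 (median 669) in XY GDX mice, with a log2 fold change over all mice of 0.44 ± 0.07, adjusted p = 2.45e-06. Slc25a20, which carries acylcarnitines over the inner membrane, was at 0.34 ± 0.09 and Cpt2, which releases the acyl-CoA inside, at 0.35 ± 0.05, and both passed.

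Uptake and activation genes were higher in XX as well. Cd36, a fatty acid translocase, was at 0.56 ± 0.11, adjusted p = 4.94e-05 and Acsl1, the main hepatic long-chain acyl-CoA synthetase, at 0.42 ± 0.07, adjusted p = 2.36e-06. Fabp1 was at 0.39 ± 0.09, adjusted p = 3.32e-04. Acot1, a cytosolic acyl-CoA thioesterase, was at 0.37 ± 0.12, adjusted p = 0.014 over all mice but passed in neither cohort alone, where the adjusted p was 0.187 (intact) and 0.0839 (GDX).

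The mitochondrial cycle enzymes had narrow, similar differences. The log2 fold changes of the 4 acyl-CoA dehydrogenases were 0.35 ± 0.08 for Acadvl (very long chain), 0.23 ± 0.07 for Acadl (long chain), 0.33 ± 0.06 for Acadm (medium chain) and 0.34 ± 0.06 for Acads (short chain), and each passed. Acads had 110.3 to 125 (median 119.7) CPM in XX GDX and 71 to 98.3 (median 87.3) in XY GDX mice, with no overlap. Hadha was at 0.35 ± 0.07, Hadhb at 0.31 ± 0.05, Hadh at 0.32 ± 0.10 and Acaa2 at 0.20 ± 0.05. Of the enzymes needed for unsaturated fatty acids, Decr1, Eci1 and Ech1 passed, at 0.40 ± 0.06, 0.36 ± 0.06 and 0.25 ± 0.09. Etfdh, which hands electrons from the flavoprotein to ubiquinone, was at 0.40 ± 0.05, adjusted p = 7.82e-09, while Etfa and Etfb, the subunits of that flavoprotein, did not pass.

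The peroxisomal genes Acaa1b, Acaa1a, Ehhadh and Hsd17b4 also passed as higher in XX mice. Acaa1b, a peroxisomal thiolase, had 414 to 949.5 (median 597) CPM in XX Intact and 298 to 696 (median 433) in XY Intact mice, and 504 to 709 (median 604) in XX GDX and 203 to 486 (median 370.0) in XY GDX mice. The GDX ranges did not overlap, and the log2 fold change was 0.62 ± 0.07, adjusted p = 3.38e-09. Its paralogue Acaa1a, which shares reads with it, was at 0.18 ± 0.05, adjusted p = 0.00195. Ehhadh, the bifunctional enzyme induced by PPARalpha, was at 0.50 ± 0.07, adjusted p = 2.57e-08, and Hsd17b4, the other bifunctional enzyme, at 0.41 ± 0.07, adjusted p = 1.97e-06.

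In GDX mice the 12 XX values all lay above the 12 XY values for 8 genes (Slc25a20, Acads, Hadha, Hadhb, Hadh, Etfdh, Hsd17b4 and Acaa1b), which was true of 2.52% of all tested genes. With libraries scaled by their totals this held for 1 gene, Acads. In intact mice it held for 0 of the 32 genes and for 0.0195% of all tested genes. All XX values lay below all XY values for 0 of the 32 genes, against 0.0454% of all tested genes in intact and 5.55% in GDX mice.

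Other measures moved with the sex chromosomes. Of 9 Kupffer cell markers, 8 were lower in XX and 0 higher, with a median log2 fold change of -1.13, and all 5 neutrophil markers tested were lower, with a median of -3.23. Of 8 lymphocyte markers, 5 were lower. Of 7 monocyte-derived macrophage markers 3 were higher and 3 lower, and of 5 cholangiocyte markers 2 were higher and 0 lower. Of 7 sinusoidal endothelial markers 0 were higher and 1 lower, and of 8 stellate cell and fibroblast markers 1 was higher and 0 lower. Of all tested genes 21.9% were higher and 14.8% lower in XX. The summed neutrophil markers were 2.48 to 36.4 (median 8.04) CPM in XX Intact and 6.77 to 795 (median 73.5) in XY Intact mice, and 2.38 to 7.86 (median 4.43) in XX GDX and 15.5 to 116 (median 40.3) in XY GDX mice. The summed Kupffer cell markers were 194 to 492 (median 360.1) CPM in XX GDX and 497 to 1525 (median 930.3) in XY GDX mice, with no overlap. Of the 9 hepatocyte markers 1 was higher in XX, with a median log2 fold change of 0.04. TMM factors were 0.946 to 1.07 in XX GDX and 1.07 to 1.24 in XY GDX mice. The part of immune cell content, of the share of reads outside genes and of scaling in the XX and XY difference was not tested.

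Genes of the same pathway outside the 32 were read from lists of other targets and steps. Of 27 other PPARalpha target genes tested, 22 were higher in XX and 0 lower, with a median log2 fold change of 0.41, among them Krt23 (1.80 ± 0.23), a keratin, the thioesterase Acot2 (0.81 ± 0.12) and the lipid droplet coat gene Plin2 (0.70 ± 0.10). Of 24 other peroxisomal genes 19 were higher and 0 lower, among them Pex11a (0.64 ± 0.09), which acts in peroxisome division. Of 7 ketone body genes 6 were higher and 1 was lower, Oxct1 (-0.87 ± 0.11), which is used for ketone oxidation outside hepatocytes. Of 17 mitochondrial content genes 11 were higher and 1 lower, with a median of 0.21. Of 17 nuclear receptors and co-regulators, Ppargc1a was higher (0.27 ± 0.07) and Pparg lower (-0.25 ± 0.10). Of 6 steatosis genes linked to PPARgamma, 4 were higher, among them the lipid droplet genes Cidea (2.88 ± 0.99) and Cidec (1.70 ± 0.25) and the acyltransferase Mogat1 (1.57 ± 0.19), and 2 were lower. With library totals 16 other PPARalpha targets and 11 other peroxisomal genes were higher, 6 mitochondrial content and 4 ketone body genes were, and 0 of the receptors were higher and 4 lower.

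Gonad type was compared next, as Ov minus Te among intact mice, and here the 32 genes divided. Cd36, Acot1, Ehhadh and Acadl were higher in mice with ovaries and Acsl1, Acaa1b, Hsd17b4, Cpt2 and Acaa2 were higher in mice with testes. These 9 of 32 (28.1%) compare with 25.3% of all tested genes (14.1% higher in Ov and 11.3% higher in Te mice), so the share was near the background. The median log2 fold change was -0.04 for the 32 genes and 0.04 for all tested genes. Spearman's rho of log2 fold change with transcript length was -0.34 across the 32 genes and -0.29 across 13077 tested genes. All 9 calls still passed with the length and GC offsets.

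Cd36 had 301 to 979 (median 505) CPM in Ov Intact and 118 to 598 (median 348) in Te Intact mice, and these overlapped, with a log2 fold change of 0.83 ± 0.15, adjusted p = 8.24e-05. Acsl1 had 676 to 1652 (median 888) CPM in Ov Intact and 1059 to 1870 (median 1558) in Te Intact mice. Its difference was -0.68 ± 0.10, adjusted p = 7.30e-07, the lowest of the 32. Ehhadh was at 0.37 ± 0.09, adjusted p = 0.0026 and Acadl at 0.31 ± 0.09, adjusted p = 0.0133. The peroxisomal genes therefore went both ways, with Ehhadh higher in Ov mice and Acaa1b (-0.39 ± 0.10) and Hsd17b4 (-0.38 ± 0.09) higher in Te mice. Without XX Ov Intact replicate 3, the mouse with the highest Ppara, Cpt1a and Hadha of its group, 15 of the 32 genes passed in place of 9. Of the Kupffer cell markers 6 of 9 were higher in Ov mice and 0 lower, and 4 were higher with library totals. Of 8 lymphocyte markers 5 were higher and 1 lower, and of 7 monocyte-derived macrophage markers 2 were higher and 0 lower. Of the 9 hepatocyte markers 1 was higher and 3 lower, and of 5 cholangiocyte markers 0 were higher and 1 lower. The 1 adipocyte marker (-3.86) and the 1 pancreas marker (-0.90) tested were lower. The part of these cell types in the differences was not tested.

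After GDX the same comparison of Ov with Te mice called 0 of the 32 genes, and the share of all genes tested that passed was 0.0908% (0.0584% higher and 0.0324% lower in Ov mice). DESeq2's Wald test also called 0, while a fit of the GDX mice alone called 1. At an unadjusted p under 0.05 it held for 6 genes. The log2 fold changes ran from -0.19 for Acsl1 to 0.50 for Pdk4 and were above 0 for 28 of the 32, with a median of 0.11.

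**Figure D3:**
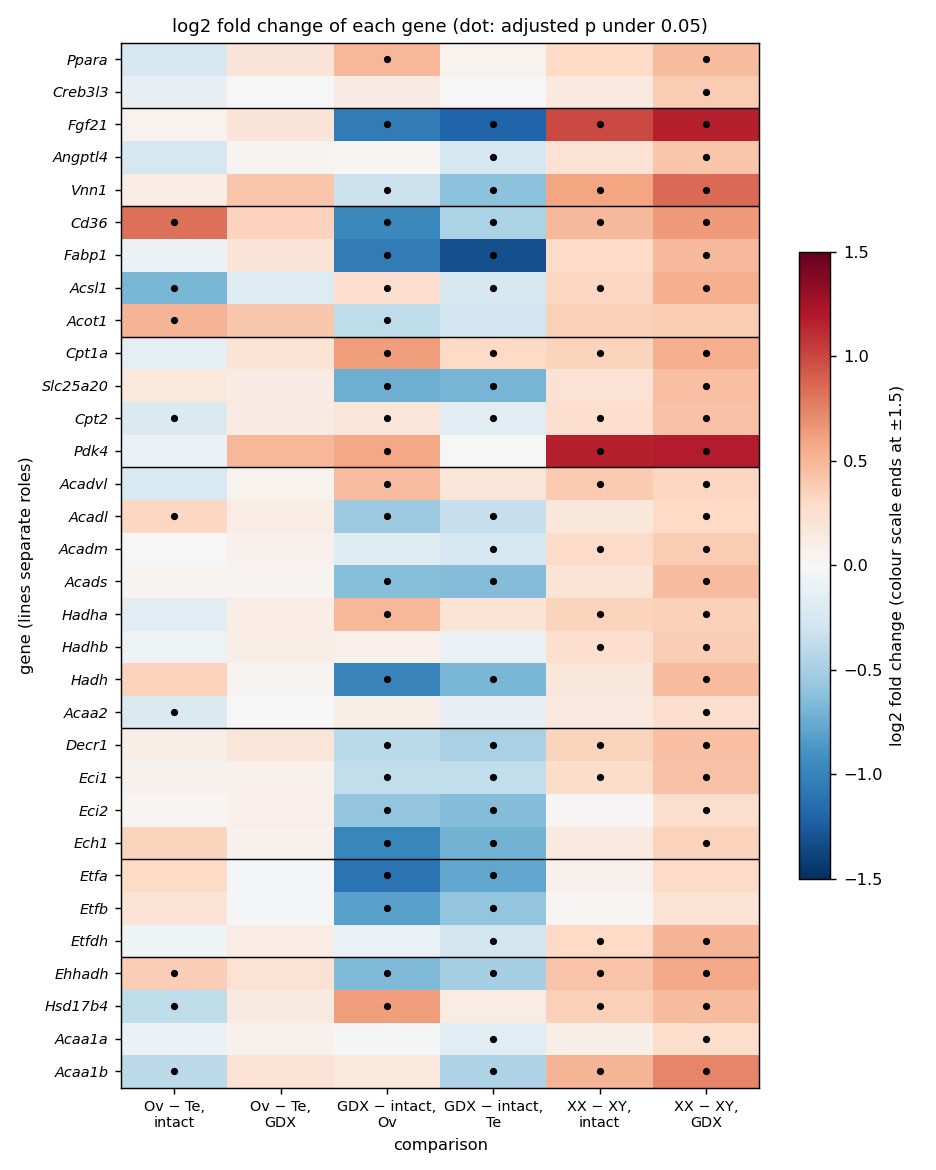
Log2 fold change (colour, scale ends at ±1.5) of the 32 genes (rows, lines separate roles) in 6 comparisons (columns); a dot marks an adjusted p under 0.05. The XX minus XY columns are red throughout with 17 dots in intact and 29 in GDX mice, and the Ov minus Te column of GDX mice has no dot.

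Gonad removal was read as GDX minus intact, separately for mice with ovaries (ovariectomy) and with testes (castration). After ovariectomy 8 of the 32 genes rose and 16 fell, and 24 of 32 (75.0%) compare with 69.4% of all tested genes. After castration 1 rose and 22 fell, and 23 of 32 (71.9%) compare with 63.3%. Of all tested genes 36% rose and 33.4% fell after ovariectomy, and 33.4% rose and 29.9% fell after castration. The median log2 fold change of the 32 genes was -0.25 and -0.32, against 0.06 and 0.07 for all tested genes. With library totals, which moved the median of all genes to 0.27 in both comparisons, 14 rose and 13 fell after ovariectomy and 5 rose and 15 fell after castration. The shares of all tested genes above hold for TMM factors and not for library totals. With 1 surrogate variable, a covariate estimated from the expression data, 15 of the 24 calls after ovariectomy and 17 of the 23 after castration still passed.

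Cell type markers moved between the same mice. After ovariectomy 4 of 8 stellate cell and fibroblast markers rose and 1 fell (median log2 fold change 0.90), 3 of 5 cholangiocyte markers rose and 0 fell (0.71), 3 of 7 monocyte-derived macrophage markers rose and 1 fell (0.26), 1 of 9 Kupffer cell markers rose and 4 fell (-0.42), and 1 of 5 neutrophil markers rose and 3 fell (-1.79). After castration 4 of 8 stellate cell and fibroblast markers rose and 0 fell (0.47), 3 of 7 monocyte-derived macrophage markers rose and 1 fell (0.54), and 1 of 5 neutrophil markers rose and 2 fell (-1.43). Of the Kupffer cell markers 2 rose and 2 fell (0.18), and of the cholangiocyte markers 2 rose and 1 fell (0.27). Of 8 lymphocyte markers 0 rose and 3 fell after ovariectomy (-0.54), and 1 rose and 0 fell after castration (0.17). The 1 adipocyte marker tested fell after castration only (-3.28), and the 1 pancreas marker tested fell after ovariectomy (-0.99) and castration (-1.76). Of the 9 hepatocyte markers 3 rose and 3 fell after ovariectomy and 4 rose and 2 fell after castration. The summed stellate cell and fibroblast markers were 297 to 502 CPM in XX Ov Intact, 279.7 to 449.9 in XY Ov Intact, 244 to 418 in XX Te Intact, 265 to 361 in XY Te Intact, 306 to 696 in XX Ov GDX, 358 to 419 in XY Ov GDX, 219 to 597 in XX Te GDX and 287 to 479 in XY Te GDX mice. These ranges overlapped between intact and GDX mice of each genotype. The part of these cell types in the changes of the 32 genes was not tested.

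The changes of the 32 genes went with transcript length. Across the 32 genes Spearman's rho between log2 fold change and the length of the longest coding transcript was 0.62 for both comparisons, and across 13077 tested genes it was 0.51 for ovariectomy and 0.40 for castration, as a description across genes, which are not independent. The genes that fell after ovariectomy had a median length of 1688 bases and those that rose 3449 bases. With offsets for length and GC content, an alternative chosen after the data were seen, 10 rose and 8 fell after ovariectomy and 0 rose and 14 fell after castration. These counts are given without the share of all genes that passed with the offsets. Length dependence, the higher share of reads outside genes, diet time and gonad removal all separate the same libraries, and cannot be told apart.

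**Figure D4:**
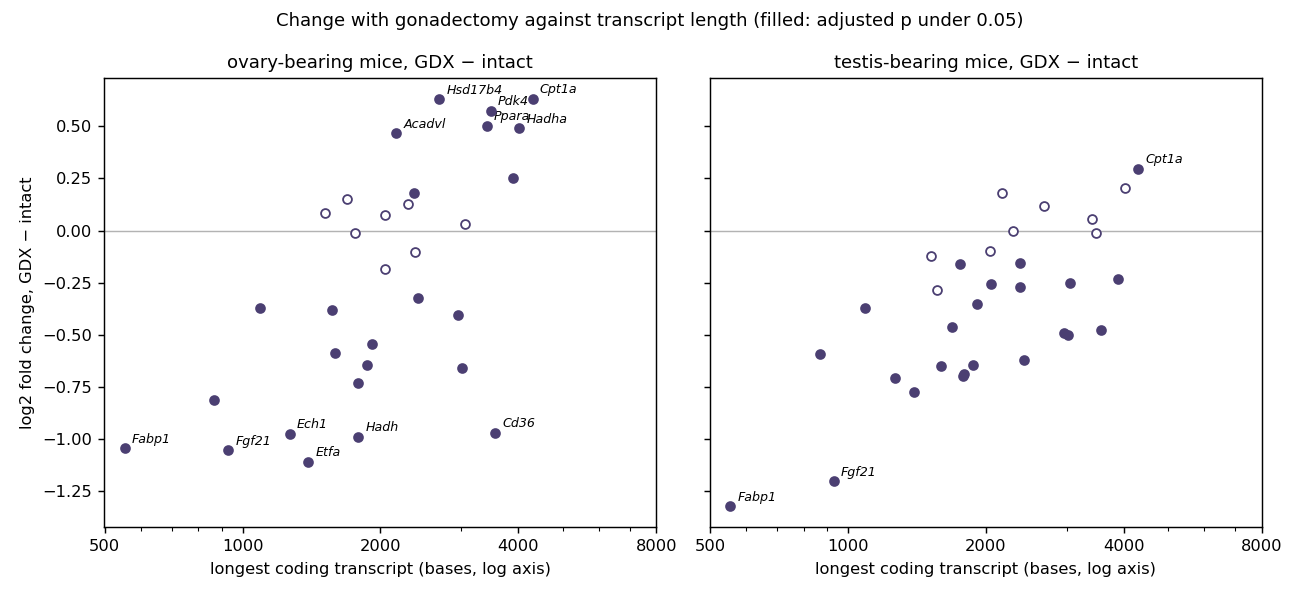
Log2 fold change of GDX minus intact mice (vertical axis) against the length in bases of the longest coding transcript (horizontal log axis) for the 32 genes, in mice with ovaries (left) and testes (right); filled points passed at an adjusted p under 0.05. Etfa, Fgf21 and Fabp1 are the 3 lowest points and Cpt1a the highest in both panels.

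Of the genes that fell in both, Fabp1 had 3974 to 11630 (median 6173) CPM in Ov Intact and 2267 to 4169 (median 3462) in Ov GDX mice, and 4353 to 10890 (median 6723) in Te Intact and 1831 to 3752 (median 2855) in Te GDX mice. The Te ranges did not overlap. Its log2 fold change was -1.05 ± 0.12, adjusted p = 1.31e-09 after ovariectomy and -1.32 ± 0.12, adjusted p = 1.31e-11 after castration, but its transcript is the shortest of the 32, and with the offsets it turned to 0.45 after ovariectomy and was -0.27 and no longer passed after castration. Fgf21 was at -1.05 ± 0.35, adjusted p = 0.00668 and -1.20 ± 0.35, adjusted p = 0.00295, and passed in neither with the offsets. Etfa was at -1.11 ± 0.14, adjusted p = 3.41e-09 and -0.78 ± 0.14, adjusted p = 5.27e-06.

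Cpt1a rose in both. It had 377 to 958 (median 510.0) CPM in Ov Intact and 568 to 1113 (median 916) in Ov GDX mice, and 453 to 809 (median 621) in Te Intact and 484 to 983 (median 728) in Te GDX mice. The ranges overlapped in both. The log2 fold change was 0.63 ± 0.10, adjusted p = 7.16e-07 after ovariectomy and 0.30 ± 0.10, adjusted p = 0.0102 after castration, and with the offsets it was 0.40 and 0.14, the second of which did not pass. Ppara had 112 to 316 (median 176) CPM in Ov Intact and 159 to 366 (median 274) in Ov GDX mice, a log2 fold change of 0.50 ± 0.12, adjusted p = 4.58e-04, and was at 0.06 ± 0.12, adjusted p = 0.698 after castration. Hsd17b4, Pdk4, Hadha, Acadvl, Acsl1 and Cpt2 also rose after ovariectomy. Split by sex chromosomes, castration raised 1 and lowered 8 of the 32 genes in XX mice (37.1% of all tested genes passed) and raised 0 and lowered 21 in XY mice (56.7%), and ovariectomy raised 5 and lowered 14 in XX (55.1%) and raised 4 and lowered 14 in XY mice (59.4%), and whether either effect differed between XX and XY mice was not tested for each gonad. Hadha and Hadhb, whose products form 1 complex, had log2 fold changes after ovariectomy of 0.49 ± 0.10, adjusted p = 2.30e-05 for Hadha and 0.07 ± 0.07, adjusted p = 0.34 for Hadhb, and the difference between them was not tested. Their longest coding transcripts have 4020 (Hadha) and 2046 (Hadhb) bases, and the part of length in this contrast was not tested.

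**Figure D5:**
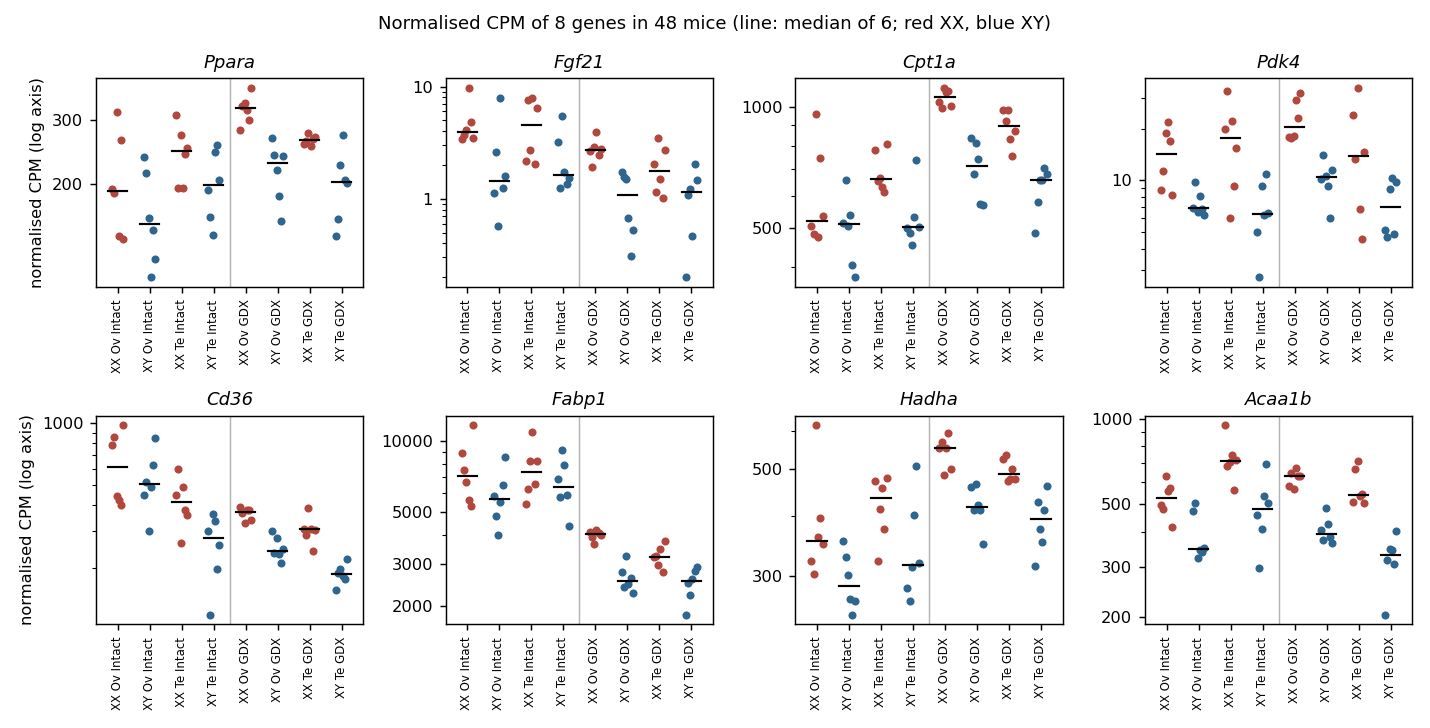
Normalised CPM (vertical log axes) of 8 genes in the 48 mice by group (horizontal axis), with XX in red, XY in blue and the median of 6 mice as a line. Fabp1 lies lower and Cpt1a higher in most GDX than intact mice, and Acaa1b of XX GDX mice lies above that of XY GDX mice with no overlap.

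The castration and ovariectomy effects were compared directly, as the difference between them, and 4 of the 32 genes passed, all with a lower change after castration than after ovariectomy (5.6% of the tested genes passed, 2.78% higher and 2.82% lower). They were Acaa1b (-0.62 ± 0.15, adjusted p = 0.00768), Hsd17b4 (-0.51 ± 0.13, adjusted p = 0.0141), Acsl1 (-0.49 ± 0.14, adjusted p = 0.025) and Cpt2 (-0.34 ± 0.10, adjusted p = 0.0336). Acaa1b had 322 to 626 (median 477) CPM in Ov Intact and 366 to 671 (median 526) in Ov GDX mice. It had 298 to 949.5 (median 621) in Te Intact and 203 to 709 (median 453) in Te GDX mice, and the ranges overlapped. The same 4 genes were higher in Te than Ov mice before gonad removal, a comparison that shares its intact mice with this one. Cpt2 lost its call in 8 of the 48 fits that left out 1 mouse, and without XX Ov Intact replicate 3, 7 genes passed in place of 4.

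Pairs of genes were compared within a cohort, after group means were removed, over 7 pairs in 24 intact and in 24 GDX mice (14 relations, permutation tests within groups). Ppara and Cpt1a rose and fell together in intact mice (Pearson's r = 0.722, permutation p = 0.00091, adjusted 0.00637; Spearman's rho = 0.731, permutation p = 0.00078, adjusted 0.0109). Without the 2 mice farthest from the median of Ppara r was 0.674. In GDX mice the pair had r = 0.494 (permutation p = 0.0579, adjusted 0.135) and rho = 0.381 (permutation p = 0.109, adjusted 0.218), and r was 0.125 without 2 mice. Ppara did not go with most of the 32 genes, as its median r with the other members was -0.273 in intact and -0.002 in GDX mice. For Cpt1a this median was -0.155 in intact and 0.468 in GDX mice. Over all 496 pairs of members the median r was 0.239 in intact and 0.609 in GDX mice, a description without a test. Ehhadh and Acaa1b were related in GDX mice (r = 0.691, permutation p = 0.00035, adjusted 0.0049; rho = 0.657, permutation p = 0.0021, adjusted 0.0147), with r = 0.754 without 2 mice, and had r = 0.119 (permutation p = 0.611, adjusted 0.839) and rho = 0.099 (permutation p = 0.664, adjusted 0.930) in intact mice. Whether the relations differ between cohorts was not tested. Pdk4 and Angptl4 in intact mice had r = -0.597 (permutation p = 0.00186, adjusted 0.00868) and rho = -0.531 (permutation p = 0.0162, adjusted 0.0757), and r was -0.433 without 2 mice. With library totals r was -0.343 (permutation test, adjusted p = 0.236) and no longer passed. Cpt1a and Pdk4 in GDX mice had r = 0.496 (permutation p = 0.0106, adjusted 0.0372) and rho = 0.462 (permutation p = 0.0324, adjusted 0.0908), and r was 0.595 without 2 mice. In both of these pairs r passed and rho did not. The remaining 8 relations did not pass in r or rho, but with library totals Cpt1a and Pdk4 in intact mice reached r = 0.561 (permutation test, adjusted p = 0.0154). Library depth and scaling are shared by both genes of a pair. The longest coding transcripts of Ppara and Cpt1a are both long, at 3413 and 4300 bases. The part of transcript length in these relations was not tested.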

How the data were processed

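Liver RNA of 48 mice was sequenced, 1 library per mouse. Per the labels, libraries were made with the KAPA mRNA HyperPrep kit, and the submitters' processing notes name STAR (version 2.7.10a), GRCm39 and DESeq2 (version 1.36.0). The authors deposited whole-number counts per gene, not normalized, for 55414 Ensembl genes. Annotation release and strand setting are not given in the sources used here. Lines of unassigned reads (3.47% to 11.28% on no gene) stayed out of library sizes and tests. Symbols were matched to 31020 genes (56.0%), and 0 columns were left unmapped.

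Groups came from the labels. All 48 mice were used, whereas the study's figures of Pnpla3 in these mice give fewer with intact testes and fewer XX mice. A model with 8 group means was fitted with edgeR (version 4.0.16, R 4.3.3) to all 48 mice, with TMM factors, filterByExpr, robust quasi-likelihood tests and Benjamini-Hochberg adjustment over 15414 genes. Genes passed at an adjusted p under 0.05. The fold changes are log2, ± SE. Log2 CPM used a prior count of 2. Permutation tests were two-sided with 100000 resamples, in Python (version 3.11.15). Lengths are from the NCBIM37 annotation and cover 84.8% of the tested genes. The members and lists were chosen with earlier results of these data known. All 32 members are named, with up to 3 of the genes that passed and changed most from each other list, and Xist and 4 Y-linked genes as a label check.

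Alternatives were DESeq2 size factors, library totals, the DESeq2 (version 1.42.0) Wald test, 2 other filters, the compared groups alone, 1 surrogate variable (sva, version 3.50.0), a fold above 1.5, no robust estimation, offsets for length and GC content (chosen after seeing the data), and leaving out each mouse. On simulated counts for the castration effect (14998 genes, 200 changed by a log2 fold change of 1), 196 were recovered among 206 called, and 0 of 15006 were called with none changed. The simulation had the same dispersion in every group, no dependence on length and few changed genes. In the data 63.3% of the tested genes passed after castration, so the simulation does not measure error under those conditions. P-values set group differences against the spread between mice as labelled, with 1 dispersion per gene shared by all groups. For some genes the spread differed between groups. For example, Hadh had a mean of 1022 CPM (SD 466) in XX Ov Intact and 545 (SD 48.2) in XX Ov GDX mice. Tests within intact mice therefore also draw on the spread of GDX mice.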

Additional observations from a re-analysis of the deposited data

Results flagged for a closer look

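In 15 of 256 sets of 6 mice (each gene in each group), 1 mouse stood apart by Dixon's test at the 95% level, and chance gives about 1 in 20. XX Te Intact replicate 2 was the lowest of its group for 5 genes, at 1060 CPM for Acsl1 (others 1580 to 1870), 116 for Cpt2 (134 to 147), 447 for Acadm (573 to 650), 314 for Etfdh (367 to 401) and 334 for Ehhadh (458 to 527). Of the other mice that were lowest, XY Te GDX replicate 1 had 724 CPM of Acsl1, XY Te Intact replicate 6 had 28.8 of Acot1, XY Ov GDX replicate 6 had 193 of Ech1 and XX Ov GDX replicate 3 had 324 of Ehhadh. Of those that were highest, XX Ov Intact replicate 4 had 9.74 CPM of Fgf21, XY Te Intact replicate 5 had 737 of Cpt1a, XX Ov Intact replicate 3 had 126 of Hadhb, XX Te GDX replicate 2 had 114 of Hadhb, XY Te Intact replicate 3 had 162 of Eci1 and XY Ov Intact replicate 6 had 145 of Acaa1a. No cause was tested.

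The effects of castration and ovariectomy differed, by the test of their difference in edgeR, for Acaa1b (log2 difference -0.62 ± 0.15, adjusted p = 0.00768), Acsl1 (-0.49 ± 0.14, adjusted p = 0.025), Cpt2 (-0.34 ± 0.10, adjusted p = 0.0336) and Hsd17b4 (-0.51 ± 0.13, adjusted p = 0.0141).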

How the results depend on the processing

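A fold change above 1.5 left 2 of the 32 genes in the gonadal comparison, 13 after ovariectomy, 10 after castration, 1 for castration minus ovariectomy, 4 for XX minus XY over all mice, 3 in intact and 5 in GDX mice. In intact mice the XX minus XY count of 17 was 10 with library totals, 10 with no filter beyond 1 count and 6 when only intact mice were fitted, and in GDX mice 29 became 19 with library totals. The fit of the GDX mice alone called 1 gene between Ov and Te mice. With length and GC offsets 14 genes passed after castration. With 1 surrogate variable 15 of the 24 calls after ovariectomy, 17 of the 23 after castration and 7 of the 9 in the gonadal comparison still passed. The difference in module mean between XX and XY GDX mice was 0.305 with library totals and 0.484 with TMM. The direction turned for Fabp1 (0.45) and Eci1 (0.18) after ovariectomy and for Eci1 (0.0237) after castration with the offsets, and for Cpt2 (0.038) and Acaa1a (0.042) after castration with library totals. With library totals r was 0.053 for Creb3l3 and Fgf21 and -0.091 for Vnn1 and Acot1 in intact mice and 0.216 for Cd36 and Pparg in GDX mice, all of the other sign, while Cpt1a and Pdk4 in intact mice reached 0.561 (permutation test, adjusted p = 0.0154) and Pdk4 and Angptl4 had -0.343 (permutation test, adjusted p = 0.236). The cause of these shifts was not tested. Leaving out 1 mouse gave 7 to 15 genes in the gonadal comparison, 0 to 0 after GDX, 21 to 25 after ovariectomy, 19 to 24 after castration, 3 to 7 for their difference, 26 to 30 for XX minus XY, 12 to 17 in intact mice, 25 to 30 in GDX mice and 0 to 0 for the interaction. Calls that held without any 1 mouse were 7 of 9, 19 of 24, 19 of 23 and 3 of 4 for the gonadal, ovariectomy and castration comparisons and the difference of the latter, 26 of 29 for XX minus XY, 9 of 17 in intact and 25 of 29 in GDX mice. Counts of reads limit Fgf21 most. No paired analysis was possible because the labels carry mouse identifiers and no replicate numbers shared between groups.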

Other observations

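Outside the 32 genes, 14 of 17 receptors and co-regulators rose and 3 fell after ovariectomy, with a median log2 fold change of 0.41, and 7 rose and 0 fell after castration, with a median of 0.23. Of all tested genes 36% rose after ovariectomy and 33.4% after castration with TMM factors. With length and GC offsets 6 rose and 4 fell after ovariectomy (median 0.06) and 4 rose and 5 fell after castration (median -0.08), and with library totals 14 rose and 1 fell, and 14 rose and 0 fell, so these counts depend on the scaling. Of 27 other PPARalpha targets 10 rose and 5 fell after ovariectomy and 7 rose and 8 fell after castration, against 9 and 7, and 7 and 11, with the offsets and 13 and 3, and 8 and 5, with library totals. Of 12 clock genes 1 was higher in XX, Hlf (0.21 ± 0.07), and 0 were with library totals.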
